A study of Mus musculus with 12 samples.

Results

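Interferon-stimulated genes and the genes of the MHC class I pathway were followed across 4 groups of mouse NIH 3T3 fibroblasts. They were chosen by name: of 40 listed genes, 36 had a named probe set among the 16475 probe sets tested, and Isg15, Ifit3, Oas1a and Nlrc5 had none and were not analysed here. By role the 36 comprised 7 receptors and transcription factors, 12 antiviral effectors, 5 interferon-inducible GTPases, 7 genes of the MHC class I heavy chain, light chain and peptide loading, and 5 of the immunoproteasome and its activator PA28. RNA was hybridised to 12 Affymetrix mouse arrays, 3 per group. The inducible cells were NIH 3T3-RheoSwitch-Ier2 cells, a single clone (3T3-ind-IER2 #11) that carried the plasmid pNEBR-R1, from which the RheoSwitch regulators are expressed, and mouse IER2 under their control. The parental cells are titled NIH 3T3 with no construct named, and whether they carried the regulators is not stated there. Each line received either RSL, the ligand of the RheoSwitch system, at 200 nM or the solvent DMSO, and was harvested after 24 h. The growth protocol in the labels lists G418 and hygromycin for all samples. Because 1 clone was set against the parental line, IER2, the regulators, transfection and the history of the clone cannot be told apart in a comparison of the lines.

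Interferons bind cell-surface receptors (Ifnar1 and Ifnar2 for type I, Ifngr1 and Ifngr2 for type II) whose Janus kinases phosphorylate STAT proteins. Type I signalling forms ISGF3, a complex that includes STAT2 and IRF9 and binds the interferon-stimulated response element (ISRE), whereas type II signalling acts through the gamma-activated site (GAS). The induced genes include antiviral effectors, GTPases that act on intracellular pathogens, and the machinery that cuts proteins into peptides, carries them into the endoplasmic reticulum and loads them on MHC class I. Fibroblasts respond to both types and present peptides on MHC class I, which NF-kappa B also regulates through kappa B sites.

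Promoter sequence was taken from RefSeq (GRCm38.p6) for 34 of the 40 listed genes, as windows from 250 bases before to 50 bases after each annotated start, 40 windows in all because some genes have several starts. The other 6, Usp18, Mx1, Mx2, Iigp1, Tap2 and Nlrc5, had no window among those given. Printed here are 7 windows: those of the 4 genes that rose in inducible cells labelled RSL (Tapbp, Gbp2, Irgm1 and Psmb10), and those of Ifit1, B2m and Psme1, which differed between the lines under DMSO by 0.38, -0.38 and -0.32 on the log2 scale and hold an ISRE core. Psme2 differed as much (-0.33), and its windows, which hold none of the motifs searched, are not printed. Each reads 5′ to 3′ on the strand of its gene, with matches to the ISRE core GAAANNGAAA, the GAS core TTCNNNGAA or the kappa B consensus in capitals. The matches were sought on both strands and may overlap each other, and the remaining bases are in lower case.
Tapbp: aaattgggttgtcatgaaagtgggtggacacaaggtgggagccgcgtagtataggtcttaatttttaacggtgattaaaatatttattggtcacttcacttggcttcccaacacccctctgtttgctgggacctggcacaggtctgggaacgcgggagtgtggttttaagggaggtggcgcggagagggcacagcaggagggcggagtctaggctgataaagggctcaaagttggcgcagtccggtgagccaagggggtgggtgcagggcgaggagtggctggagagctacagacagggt
Gbp2: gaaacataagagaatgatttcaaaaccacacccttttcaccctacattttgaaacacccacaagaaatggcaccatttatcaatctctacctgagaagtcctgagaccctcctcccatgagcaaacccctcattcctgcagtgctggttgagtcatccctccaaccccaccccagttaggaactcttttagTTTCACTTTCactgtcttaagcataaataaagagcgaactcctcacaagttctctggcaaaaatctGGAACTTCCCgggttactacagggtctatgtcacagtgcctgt
Irgm1: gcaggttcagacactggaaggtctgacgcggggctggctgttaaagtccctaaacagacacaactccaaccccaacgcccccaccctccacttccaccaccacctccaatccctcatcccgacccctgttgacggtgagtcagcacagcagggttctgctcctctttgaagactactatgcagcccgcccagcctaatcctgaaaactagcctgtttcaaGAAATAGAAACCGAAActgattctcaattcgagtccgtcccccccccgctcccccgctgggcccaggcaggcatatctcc
Psmb10: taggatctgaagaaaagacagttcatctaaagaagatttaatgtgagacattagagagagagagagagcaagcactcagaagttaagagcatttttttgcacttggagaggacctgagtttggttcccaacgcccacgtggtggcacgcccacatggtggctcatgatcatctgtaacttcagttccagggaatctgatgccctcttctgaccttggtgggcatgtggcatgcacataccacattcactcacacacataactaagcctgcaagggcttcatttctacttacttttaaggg
Ifit1: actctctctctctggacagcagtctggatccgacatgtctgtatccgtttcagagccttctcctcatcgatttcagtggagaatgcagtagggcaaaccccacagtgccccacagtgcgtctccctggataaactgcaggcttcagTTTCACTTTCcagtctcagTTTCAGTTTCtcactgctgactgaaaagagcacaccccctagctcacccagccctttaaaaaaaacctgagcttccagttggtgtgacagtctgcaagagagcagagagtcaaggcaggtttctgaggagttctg
B2m: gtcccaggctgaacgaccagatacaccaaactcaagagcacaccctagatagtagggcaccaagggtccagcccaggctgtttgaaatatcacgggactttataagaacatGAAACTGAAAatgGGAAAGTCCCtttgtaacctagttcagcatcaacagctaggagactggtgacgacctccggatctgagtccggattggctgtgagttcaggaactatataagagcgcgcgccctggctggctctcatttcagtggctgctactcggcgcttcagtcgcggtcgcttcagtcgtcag
Psme1: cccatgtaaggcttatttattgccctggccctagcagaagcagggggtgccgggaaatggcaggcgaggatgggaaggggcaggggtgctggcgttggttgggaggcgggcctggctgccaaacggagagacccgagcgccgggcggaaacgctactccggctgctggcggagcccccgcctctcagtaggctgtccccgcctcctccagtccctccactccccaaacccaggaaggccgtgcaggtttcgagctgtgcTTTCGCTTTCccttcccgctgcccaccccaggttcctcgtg
These windows lie at chr17:33919228-33919527 on the plus strand for Tapbp, chr3:142620413-142620712 on the plus strand for Gbp2, chr11:48871371-48871670 on the minus strand for Irgm1, chr8:105938343-105938642 on the minus strand for Psmb10, chr19:34640639-34640938 on the plus strand for Ifit1, chr2:122147437-122147736 on the plus strand for B2m and chr14:55578244-55578543 on the plus strand for Psme1. Gbp2 held an ISRE core whose first base lay at -59 from the start and a kappa B match at 8. Irgm1 held a pair of overlapping ISRE cores at -30 and -24. Tapbp and Psmb10 held no match to any of the 3 motifs. Ifit1 held ISRE cores at -104 and -85, B2m an ISRE core at -139 followed by a kappa B match at -126, and Psme1 an ISRE core at 10, inside the transcribed part.

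The ISRE core was found in 16 of the 40 member windows (40%), against 3.44% of all 32851 windows of the same length. By gene it was present in 4 of 4 GTPases with a window (Gbp2, Gbp3, Irgm1 and Igtp) and in 8 of 12 antiviral effectors, against 2 of 6 MHC class I genes (B2m and Erap1), 1 of 5 immunoproteasome and PA28 genes (Psme1) and 1 of 7 receptors and transcription factors (Stat2). The kappa B consensus lay in 22.5% of member windows and 8.46% of all windows, and its 8 genes included H2-K1, H2-D1 and B2m, which encode the chains of the class I molecule. The GAS core lay in 22.5% of member windows and 8.3% of all windows, among them those of Irf1, Psmb8 and Ifi35. No listed motif was found in 11 of the 34 genes. The windows of Tap1 and Psmb9, which are transcribed away from each other, share 275 bases. A match is a description of the letters and shows neither binding nor its absence.

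**Figure D1:**
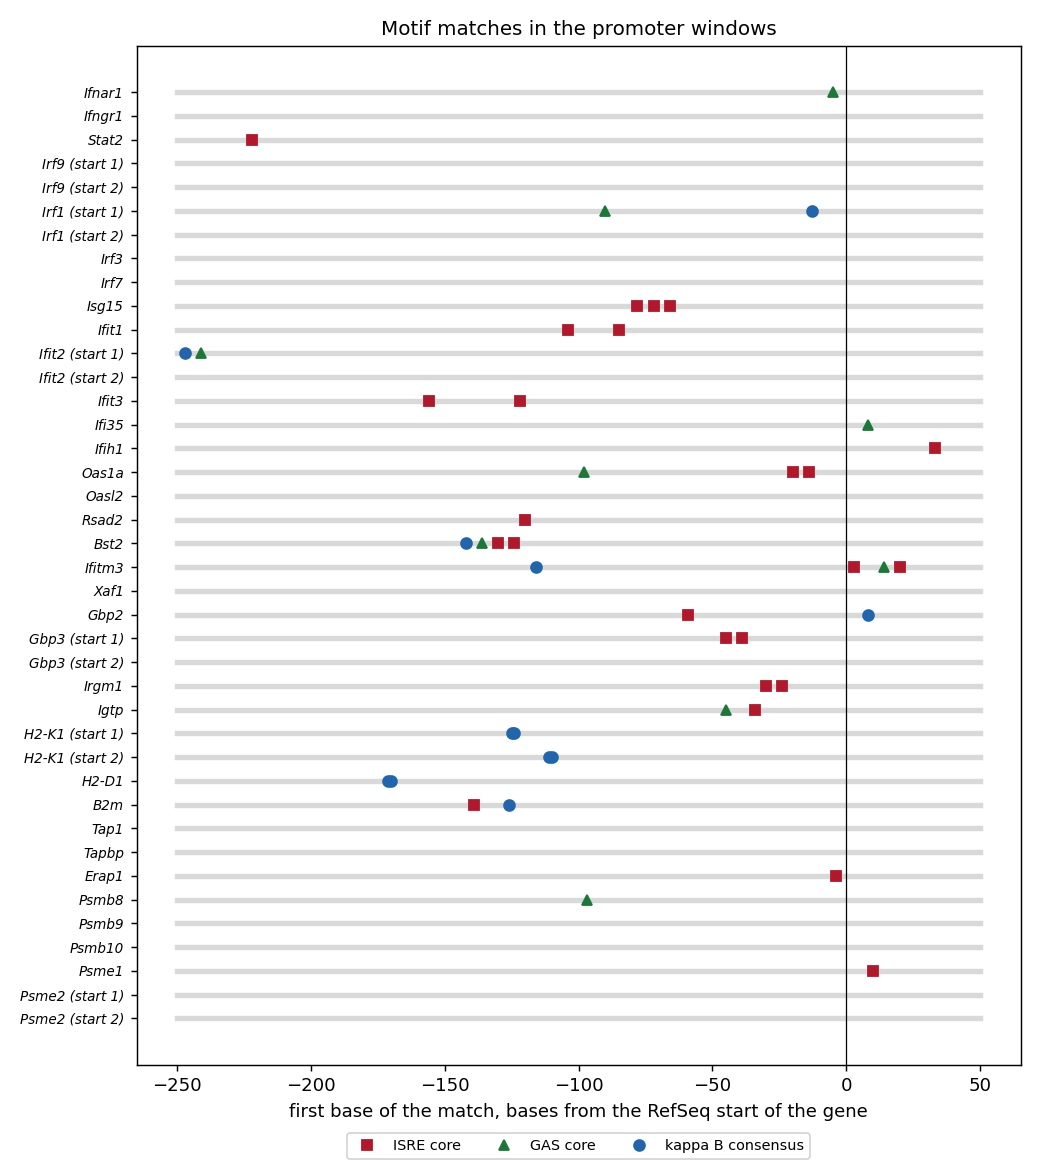
Position of each motif match in the 40 promoter windows of 34 genes, as bases from the RefSeq start (x axis), with one row per window; squares mark the ISRE core, triangles the GAS core and circles the kappa B consensus. Squares lie mostly between the start and -156 in the antiviral effectors and GTPases, with Ifih1 and Ifitm3 after the start, while Tapbp, Tap1, Psmb9 and Psmb10 carry no mark.

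The values are log2 expression levels after the authors' normalisation, so 1 unit is a 2-fold difference. A value of a given probe set can be compared between arrays, but levels of different genes cannot be ordered, because their probes differ. Where a set of 3 values is followed by "and then", the arrays under DMSO come first and those labelled RSL second. The median of all probe sets lay between 7.033 and 7.057 on the 12 arrays and the first quartile between 6.233 and 6.302. On all 12 arrays 18 of the 36 genes were above the median, among them Ifitm3, H2-D1 and B2m at more than 11, and 6 were below the first quartile: Usp18, Ifih1, Mx1, Oasl2, Gbp3 and Iigp1. Small differences of those 6 may not be detectable on these arrays. Of 10 fibroblast marker genes 9 were above the median on all arrays. No T, B or NK cell, MHC class II, epithelial or endothelial marker was above the median on all arrays, and 2 of 10 macrophage and dendritic cell markers were. The mean of the macrophage and dendritic cell markers ran from 6.63 to 6.66 in inducible cells under DMSO and 6.65 to 6.71 under RSL. In parental cells it ran from 6.62 to 6.65 under DMSO and 6.67 to 6.69 under RSL. Of these 10 markers, 1 passed as higher and 2 as lower in the clone under DMSO, and likewise under RSL. Of 5 endothelial markers, 3 were below the first quartile on all arrays. The mean of all 5 ran from 6.21 to 6.28 in the clone and 6.09 to 6.18 in parental cells. Of these 5, only Tie1 differed between the lines (0.73 under DMSO and 0.66 under RSL), and Pecam1, Cdh5, Kdr and Tek did not pass, with values from -0.05 to 0.02 under DMSO. The part of either in the results was not tested.

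Ier2, the gene of the construct, was read first as a check of the labels. It lay at 9.07, 9.04 and 8.96 on the inducible arrays labelled DMSO and at 8.50, 8.48 and 8.66 on those labelled RSL. In parental cells it lay at 8.60, 8.61 and 8.53 under DMSO and at 8.82, 8.74 and 8.67 under RSL. The inducible arrays labelled RSL were therefore lower than those labelled DMSO, by -0.47 (standard error 0.05, adjusted p = 4.64e-05, limma), the opposite of what the label of an induced group says. It is not known whether the Ier2 probes detect RNA made from the plasmid, and each direction given for inducible cells below rests on the labels. Were the DMSO and RSL labels of the inducible arrays exchanged, the RSL effects in inducible cells would change sign, and the comparisons with parental cells and the difference of the RSL effects would take other values, which were not computed. In bulk RNA, fewer cells with a transcript and less transcript per cell cannot be told apart.

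The comparison of RSL with DMSO in inducible cells was designed to ask which genes move with induction of the construct. No value in these arrays shows that induction, since Ier2 was lower in those labelled RSL. Tapbp, Gbp2, Irgm1 and Psmb10 rose, by 1.10- to 1.21-fold, and none fell. They are 4 of 36 genes (11.1%), where 2.54% of all probe sets passed the same test, an adjusted p under 0.05 from limma over all 16475 probe sets. The 4 comprise an MHC class I loading factor, a pair of interferon-inducible GTPases and an immunoproteasome subunit. No antiviral effector, receptor or transcription factor passed. Of the effectors, Usp18, Ifih1, Mx1 and Oasl2 were below the first quartile on all arrays, where small changes may not be detectable. The fitted change was above 0 for 29 genes and below 0 for 7, beside 52.2% above 0 over all probe sets. Its median was 0.04 against 0 over all probe sets. At an unadjusted p under 0.05 there were 10 higher and 0 lower, beside 12.3% of all probe sets in either direction.

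Tapbp encodes tapasin, which bridges the peptide transporter and the empty class I molecule. On the inducible arrays it read 8.56, 8.56 and 8.58 under DMSO and 8.87, 8.85 and 8.81 in those labelled RSL. Parental cells gave 8.82, 8.80 and 8.73 under DMSO and 8.71, 8.77 and 8.71 under RSL. The inducible arrays labelled DMSO were thus the lowest of all 12, and did not overlap with those labelled RSL. The RSL effect was 0.28 in inducible cells (standard error 0.03, adjusted p = 0.000249, limma) and -0.05 in parental cells (adjusted p = 0.637).

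Gbp2 encodes a guanylate-binding protein that is recruited to vacuoles of intracellular pathogens. Its inducible arrays read 6.42, 6.47 and 6.49 under DMSO and 6.75, 6.76 and 6.65 in those labelled RSL, without overlap. Its parental arrays read 6.59, 6.70 and 6.63 under DMSO and 6.57, 6.47 and 6.58 under RSL, so all 3 were lower under RSL there. The RSL effect was 0.26 in inducible cells (standard error 0.04, adjusted p = 0.00285, limma) and -0.10 in parental cells (adjusted p = 0.458). Its paralog Gbp3, which was below the first quartile on all arrays, had an effect of 0.00 in inducible cells (95% interval -0.08 to 0.08).

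Irgm1 encodes an immunity-related GTPase that regulates other members of its family. In inducible cells it read 7.59, 7.63 and 7.55 under DMSO and 7.78, 7.80 and 7.79 in those labelled RSL. In parental cells it read 7.31, 7.31 and 7.25 under DMSO and 7.21, 7.23 and 7.16 under RSL. The 4 groups did not overlap at any point, with the inducible arrays labelled RSL highest and the parental arrays under RSL lowest. The RSL effect was 0.20 in inducible cells (standard error 0.03, adjusted p = 0.00365, limma) and -0.09 in parental cells (adjusted p = 0.411). The other immunity-related GTPases Igtp and Iigp1 did not pass, at 0.04 (95% interval -0.06 to 0.15) and 0.01 (-0.07 to 0.09).

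Psmb10 encodes the immunoproteasome subunit that takes the place of the constitutive subunit Psmb7. It read 8.65, 8.58 and 8.67 in inducible cells under DMSO and 8.82, 8.72 and 8.79 in those labelled RSL, and in parental cells 8.68, 8.74 and 8.71 under DMSO and 8.68, 8.67 and 8.69 under RSL. The inducible groups did not overlap and the parental groups differed little, with effects of 0.14 (standard error 0.04, adjusted p = 0.0483, limma) and -0.03 (adjusted p = 0.81). This call was at the edge of the threshold: it held in 1 of 6 repeats that each left out 1 inducible array, when inducible RSL replicate 2 was left out, with adjusted p from 0.0329 to 0.262. Psmb8 and Psmb9, the other immunoproteasome subunits, did not pass. Psmb8 read 6.40, 6.50 and 6.36 in inducible cells under DMSO and 6.40, 6.34 and 6.32 in those labelled RSL, and 6.43, 6.37 and 6.43 and then 6.39, 6.41 and 6.43 in parental cells, with overlap in both lines.

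**Figure D2:**
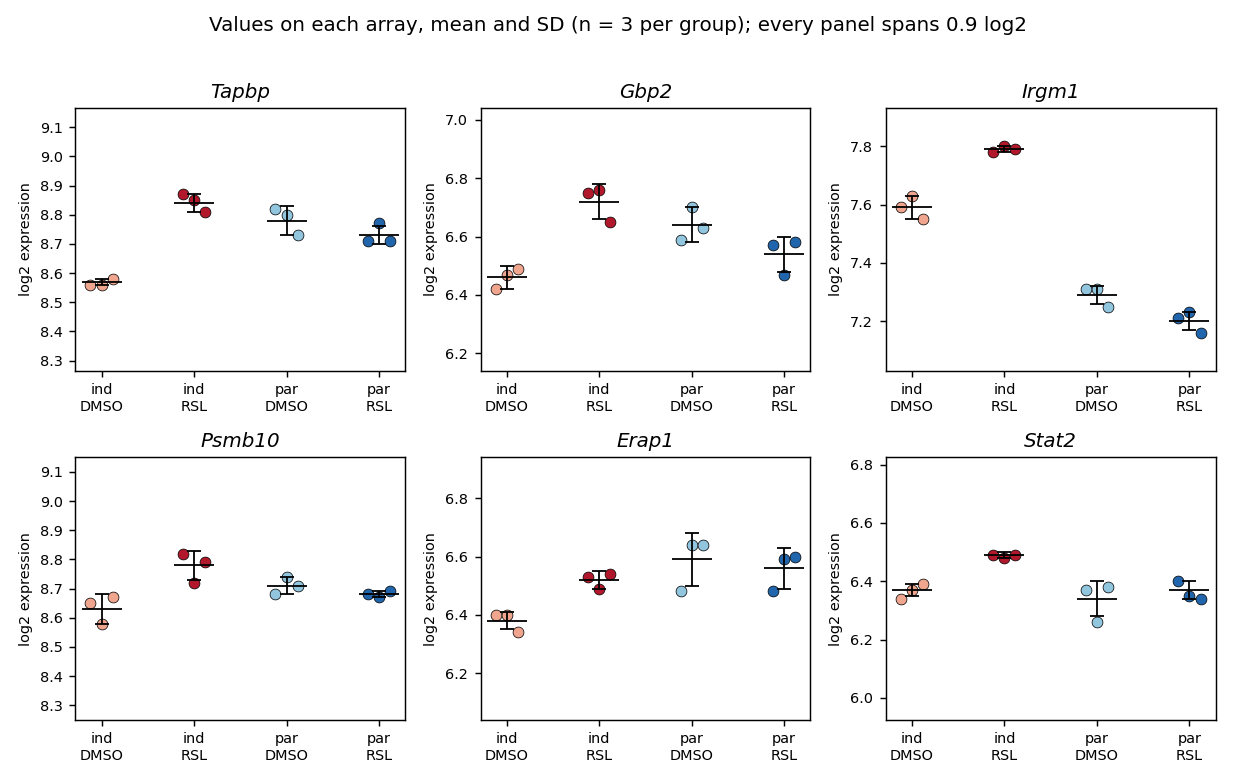
Log2 expression of 6 genes on each of the 12 arrays (y axis, every panel spanning 0.9 log2 units) by group, ind being the inducible clone and par the parental cells; points are arrays, the long bar is the mean and the whiskers the SD of 3 arrays. In all 6 panels the inducible arrays labelled RSL lie above those labelled DMSO without overlap, whereas only Tapbp, Gbp2, Irgm1 and Psmb10 passed the test. The 6 come from the 9 of 36 genes with this separation, and the other 27 overlapped.

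Among the receptors and transcription factors no gene passed in inducible cells. Stat2, a subunit of ISGF3, read 6.34, 6.37 and 6.39 under DMSO and 6.49, 6.48 and 6.49 in the arrays labelled RSL, without overlap, but its effect of 0.12 had an adjusted p of 0.106 (limma). In parental cells it read 6.37, 6.26 and 6.38 under DMSO and 6.40, 6.35 and 6.34 under RSL. Irf1, a transcription factor that is itself induced through a GAS element, was also separated, at 8.15, 8.22 and 8.22 against 8.34, 8.27 and 8.38, with an effect of 0.13 (adjusted p = 0.111). Its parental arrays read 8.41, 8.39 and 8.44 under DMSO and 8.47, 8.39 and 8.33 under RSL, and overlapped.

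Irf9, the DNA-binding subunit of ISGF3, and Irf7, which amplifies type I interferon production, showed no separation. Irf9 read 6.34, 6.34 and 6.40 in inducible cells under DMSO, 6.25, 6.34 and 6.37 in those labelled RSL, and 6.38, 6.33 and 6.46 and then 6.43, 6.29 and 6.33 in parental cells. Irf7 read 6.71, 6.79 and 6.70 in inducible cells under DMSO, 6.63, 6.72 and 6.82 in those labelled RSL, and 6.82, 6.64 and 6.72 and then 6.75, 6.84 and 6.84 in parental cells. Their effects in inducible cells were -0.04 (95% interval -0.13 to 0.05) and -0.01 (-0.12 to 0.10).

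The 12 antiviral effectors had changes between -0.05 and 0.10 in inducible cells, with 10 above 0. Ifi35, an interferon-induced protein, and Xaf1, a proapoptotic interferon-induced gene, had arrays labelled RSL all above those labelled DMSO, at 0.09 and 0.07 (adjusted p = 0.229 and 0.626, limma). Mx1, Mx2, Rsad2, Usp18 and Ifih1 lay between -0.05 and 0.04. Mx1 and Mx2 encode dynamin-like GTPases that block viral replication, Rsad2 encodes viperin, Usp18 removes ISG15 from proteins and Ifih1 is the RNA sensor MDA5.

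In the MHC class I group, Tapbp was the only gene of 7 that passed in inducible cells. H2-K1, a classical class I heavy chain, read 7.69, 7.70 and 7.66 under DMSO and 7.73, 7.68 and 7.73 in the arrays labelled RSL, and 7.64, 7.71 and 7.62 and then 7.65, 7.63 and 7.63 in parental cells. Tap1, a subunit of the peptide transporter, read 7.15, 7.08 and 7.33 in inducible cells under DMSO and 7.21, 7.13 and 7.20 in those labelled RSL, and 7.37, 7.22 and 7.21 and then 7.31, 7.32 and 7.23 in parental cells. The groups overlapped for both genes in both lines, and the intervals of their effects in inducible cells were -0.04 to 0.10 and -0.12 to 0.12. Erap1, which trims peptides in the endoplasmic reticulum, read 6.40, 6.40 and 6.34 under DMSO and 6.53, 6.49 and 6.54 in the arrays labelled RSL, separated at 0.14 but with an adjusted p of 0.155 (limma). A subunit of the PA28 cap in the immunoproteasome group, Psme1, had a value of 0.12 that did not pass, and passed without inducible RSL replicate 1 (0.20, adjusted p = 0.0288). H2-D1 had a value of 0.07, Tap2 of 0.08 and B2m of 0.03, none of which passed. Class I heavy chain genes are similar in sequence to each other, and how far the probe sets of H2-K1 and H2-D1 read related transcripts was not tested.

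Over all 36 genes, the arrays labelled RSL lay entirely above those labelled DMSO for 9 genes and entirely below for 0, beside 9.34% and 8.75% of all probe sets. With 3 arrays against 3, a two-sided exact permutation test of a single gene cannot go below p = 0.1, so the calls rest on limma's variance shared over all probe sets. A one-way analysis of these 6 arrays alone, without shared variances, called 9 members at a nominal p under 0.05. It called 0 after Benjamini-Hochberg adjustment, when 1 probe set of all was called. The methods name a one-way analysis of variance but not the arrays that entered it, so these counts need not be those of the study.

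In parental cells, for which the titles name no construct, the same comparison gave the response to the ligand. No gene passed (limma, adjusted p under 0.05), where 0.0303% of all probe sets did. The change was above 0 for 11 genes and below 0 for 25, beside 55.6% above 0 over all probe sets. Its median was -0.03 against 0.01 over all probe sets. At an unadjusted p under 0.05 there were 2 higher, Irf3 and H2-D1, and 4 lower, Ifitm3, Gbp2, Irgm1 and B2m. Over all probe sets the share at that level was 9.71% in either direction. The same one-way analysis, on the parental arrays alone, called 6 at a nominal p under 0.05 and 0 after adjustment.

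The smallest p-values there belonged to Ifitm3, Irf3 and B2m. Ifitm3, which blocks entry of viruses from endosomes, read 12.30, 12.31 and 12.29 under DMSO and 12.21, 12.17 and 12.21 under RSL, a value of -0.10 (adjusted p = 0.366, limma). Irf3, a factor activated by nucleic acid sensors, read 7.77, 7.76 and 7.68 under DMSO and 7.85, 7.81 and 7.87 under RSL, a value of 0.11 (adjusted p = 0.371). B2m, the light chain of MHC class I, read 11.57, 11.66 and 11.62 under DMSO and 11.35, 11.40 and 11.52 under RSL, a value of -0.19 (adjusted p = 0.388). The groups did not overlap for any of the 3, yet none passed over all probe sets. Of the 36 genes, 2 were entirely higher and 5 entirely lower under RSL, beside 7.12% and 6.15% of all probe sets.

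**Figure D3:**
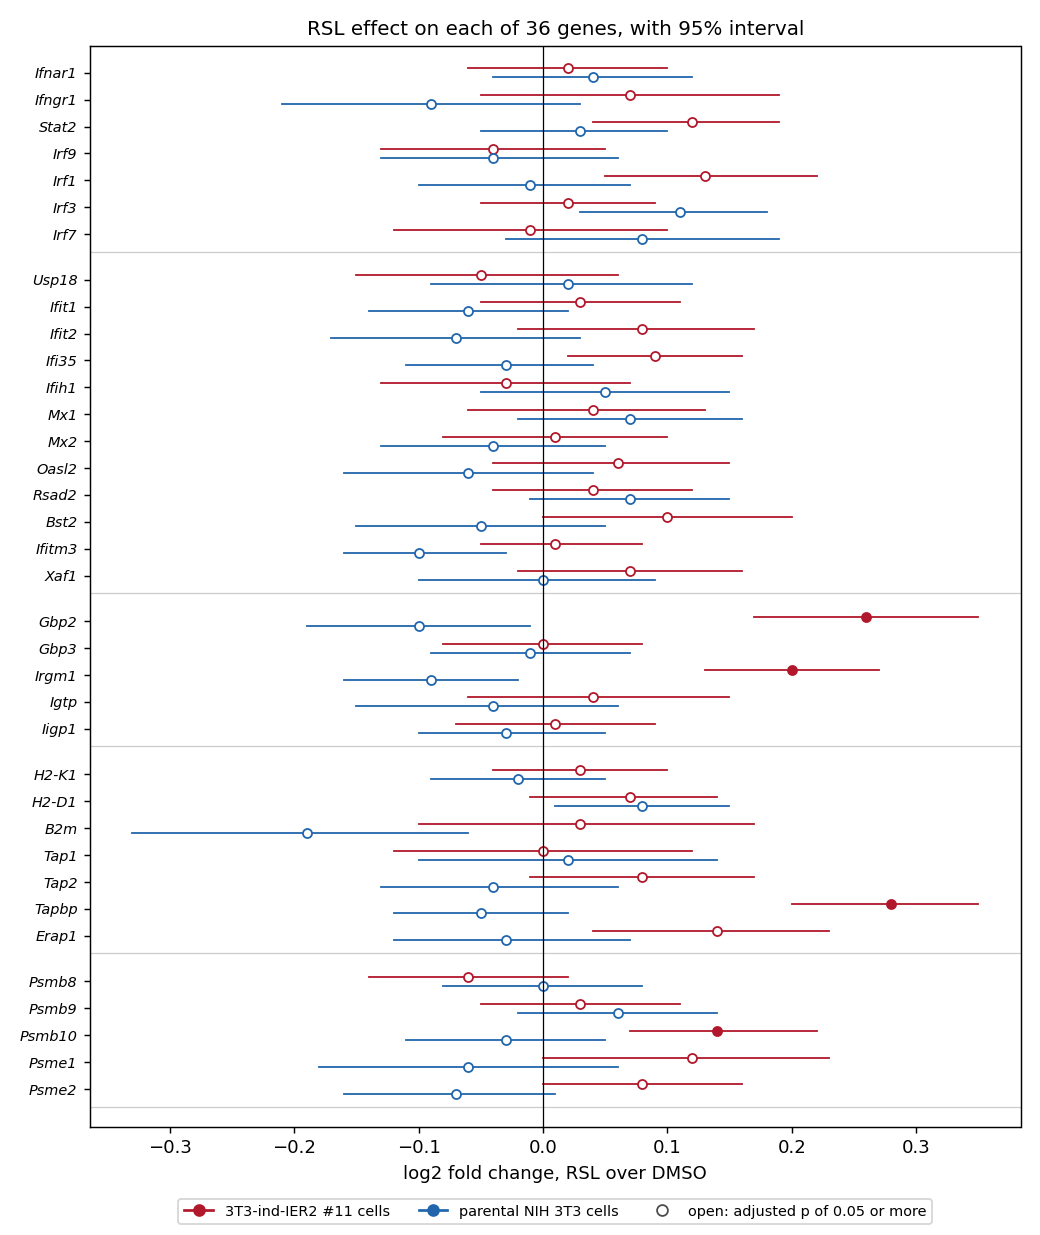
RSL effect on each of the 36 genes as log2 fold change (x axis) with its 95% interval, in inducible cells (red) and parental cells (blue), with genes grouped by role in the order of the text; filled points passed at an adjusted p under 0.05. Filled points are the 4 genes Gbp2, Irgm1, Tapbp and Psmb10 in inducible cells, and no parental point is filled.

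The difference of the RSL effects, inducible minus parental, tested whether the response depended on the line. The response was higher in inducible cells for Gbp2 (0.36, standard error 0.06, adjusted p = 0.0087), Tapbp (0.33, standard error 0.05, adjusted p = 0.00372) and Irgm1 (0.29, standard error 0.05, adjusted p = 0.00729), all by limma. These are 3 of 36 genes (8.33%), where 0.662% of all probe sets passed. All 3 were called in each of 12 repeats that left out 1 array. Psmb10 had a difference of 0.17 that did not pass (adjusted p = 0.199). At an unadjusted p under 0.05 there were 13 higher and 0 lower, beside 9.07% of all probe sets in either direction. The median difference was 0.09 against 0 over all probe sets. By role the medians were 0.16 for the immunoproteasome and PA28, 0.12 for the MHC class I group, 0.09 for the GTPases, 0.08 for the antiviral effectors and 0 for the receptors and transcription factors. In that order the values ran from -0.06 to 0.18, -0.02 to 0.33, 0.01 to 0.36, -0.08 to 0.15 and -0.09 to 0.16. Genes that passed were 0 of 5, 1 of 7, 2 of 5, 0 of 12 and 0 of 7. Whether the roles differed was not tested. The sign of the RSL effect was shared by the lines for 10 of 36 genes, and the share over all probe sets was not computed. As Ier2 itself went against the label of the inducible arrays, the direction of these differences rests on the labels too.

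The lines were compared under DMSO, where the labels make the clone uninduced. Ier2 was higher in the clone than in parental cells there, by 0.45 (adjusted p = 3.24e-06, limma), and differed by -0.20 under RSL (adjusted p = 0.00533), so which arrays stand for the uninduced clone rests on the labels, as do the counts, ranks and directions that follow. There 15 of 36 genes differed (41.7%), where 29.7% of all probe sets did. In the clone 5 were higher, between 1.10- and 1.30-fold, and 10 were lower, between 1.10- and 1.30-fold. Of all probe sets, 2502 were higher and 2383 lower. The fitted difference was above 0 for 17 genes and below 0 for 19, beside 46.7% above 0 over all probe sets. Its median was -0.03 against -0.01 over all probe sets. Clone arrays lay entirely above parental arrays for 6 genes and entirely below for 11, beside 20% and 20.2% of all probe sets. No gene differed by more than 1 log2 unit, beside 0.316% of all probe sets. By role, 0 were higher and 4 lower of 7 MHC class I genes, 0 and 2 of 5 immunoproteasome and PA28 genes, 3 and 1 of 12 antiviral effectors, 1 and 1 of 5 GTPases, and 1 and 2 of 7 receptors and transcription factors. Whether direction differed between roles was not tested.

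Of the genes that were higher in the clone, Ifit1 differed most under DMSO. Ifit1, which binds viral RNA that lacks the cap methylation of host messages, read 6.63, 6.60 and 6.62 in the clone under DMSO and 6.71, 6.63 and 6.58 in the arrays labelled RSL, against 6.23, 6.25 and 6.22 and then 6.12, 6.17 and 6.22 in parental cells. Every clone array was above every parental array, a difference of 0.38 under DMSO (standard error 0.04, adjusted p = 8.27e-07, limma) and 0.47 under RSL. Irgm1, whose values are given above, was higher by 0.30 under DMSO (adjusted p = 2.85e-06) and by 0.59 under RSL (adjusted p = 8.66e-10), which at 1.5-fold was the largest line difference of the 36 genes.

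Ifi35 read 8.26, 8.26 and 8.28 in the clone under DMSO and 8.36, 8.36 and 8.35 in the arrays labelled RSL, against 8.02, 8.13 and 8.03 and then 8, 8.03 and 8.04 in parental cells. Bst2, which encodes tetherin and holds budding virions at the cell surface, read 7.30, 7.26 and 7.35 and then 7.52, 7.32 and 7.37 in the clone, against 7.13, 7.23 and 7.14 and then 7.13, 7.10 and 7.12 in parental cells. Both genes were higher in every clone array than in every parental array, by 0.21 and 0.13 under DMSO (adjusted p = 0.000167 and 0.0385, limma). The Bst2 call under DMSO held in 2 of 6 repeats that left out 1 array (adjusted p from 0.0209 to 0.143), those without inducible DMSO replicate 2 or parental DMSO replicate 2. Irf3 read 7.87, 7.86 and 7.91 in the clone under DMSO, all above the parental arrays under DMSO, by 0.14 (adjusted p = 0.00418), and 7.90, 7.87 and 7.92 in those labelled RSL.

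B2m had the largest fall in the clone under DMSO. It read 11.34, 11.25 and 11.11 in the clone under DMSO, all below the parental arrays, and 11.18, 11.41 and 11.21 in those labelled RSL. The difference was -0.38 under DMSO (standard error 0.06, adjusted p = 0.000203, limma) and -0.16 under RSL, where the lines overlapped and the test was not passed (adjusted p = 0.0709). The RSL effect on B2m was 0.03 in inducible and -0.19 in parental cells, and neither passed. The class I heavy chains H2-K1 and H2-D1 differed by 0.03 and 0.01 under DMSO and did not pass.

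Psme1 and Psme2 encode the alpha and beta subunits of PA28, the cap that opens the proteasome. Psme1 read 9.02, 9.06 and 9.07 in the clone under DMSO and 9, 9.25 and 9.25 in the arrays labelled RSL, against 9.37, 9.39 and 9.36 and then 9.38, 9.23 and 9.34 in parental cells. Psme2 read 8.91, 8.93 and 9.03 and then 9.03, 9 and 9.09 in the clone, against 9.26, 9.33 and 9.28 and then 9.24, 9.19 and 9.21 in parental cells. Under DMSO both were lower in the clone without overlap, by -0.32 and -0.33 (standard errors 0.05 and 0.04, adjusted p = 0.000199 and 4.78e-06, limma). Under RSL Psme2 was still lower without overlap (-0.18, adjusted p = 0.00185), while the Psme1 arrays overlapped and its call (-0.15, adjusted p = 0.047) was lost in 3 of 6 repeats, those without inducible RSL replicate 1, parental RSL replicate 1 or parental RSL replicate 3 (adjusted p up to 0.288).

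The remaining genes that were lower in the clone under DMSO were an antiviral effector, a receptor chain, a transcription factor, a GTPase and 3 genes of peptide loading. Ifitm3 read 12.07, 12.05 and 12.01 in the clone under DMSO and 12.06, 12.06 and 12.05 in the arrays labelled RSL, all below the parental arrays, by -0.25 under DMSO (adjusted p = 5.76e-06, limma) and -0.14 under RSL. Ifngr1, the ligand-binding chain of the interferon-gamma receptor, read 7.94, 7.81 and 7.85 in the clone under DMSO and 7.87, 8.03 and 7.91 in those labelled RSL, against 8, 8.18 and 8.17 and then 7.96, 8.02 and 8.11 in parental cells. It was lower under DMSO (-0.25, adjusted p = 0.00214) and overlapped under RSL (-0.09, adjusted p = 0.231). Irf1 was lower by -0.21 (adjusted p = 0.000532), Tapbp by -0.21 (adjusted p = 0.000134), Erap1 by -0.21 (adjusted p = 0.00182) and Gbp2 by -0.18 (adjusted p = 0.00319), each without overlap. The lowest of these differences in size was that of Tap2, the partner of Tap1 (-0.14, adjusted p = 0.0229), whose call held in 2 of 6 repeats that left out 1 array, those without inducible DMSO replicate 3 or parental DMSO replicate 3.

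**Figure D4:**
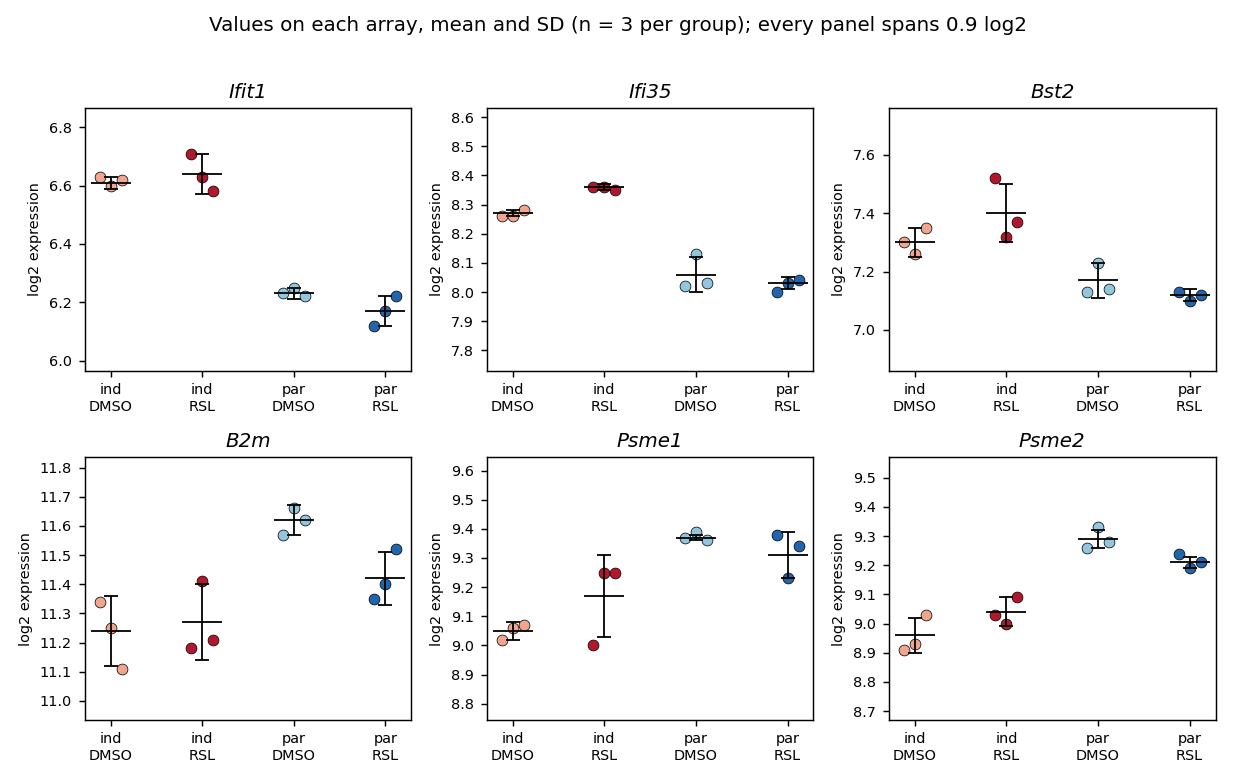
Log2 expression of 6 genes that differed between the lines, on each of the 12 arrays (y axis, every panel spanning 0.9 log2 units) by group, ind being the inducible clone and par the parental cells; points are arrays, the long bar is the mean and the whiskers the SD of 3 arrays. Ifit1, Ifi35 and Bst2 are higher in every clone array than in every parental array, and Psme2 is lower in every one. For B2m and Psme1 at least 1 clone array labelled RSL, but not every one, lies within the range of the parental arrays under RSL.

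Under RSL the lines were compared in the other 6 arrays, which share none with the comparison under DMSO. There 13 of 36 genes differed (36.1%), where 34.2% of all probe sets did, with 10 higher and 3 lower in the clone. Of all probe sets, 2878 were higher and 2760 lower. The fitted difference was above 0 for 18 genes and below 0 for 18, beside 42.5% above 0 over all probe sets. Its median was 0 against -0.02 over all probe sets. Clone arrays under RSL lay entirely above parental arrays for 12 genes and entirely below for 6, beside 21.2% and 23.3% of all probe sets. Both comparisons called 9 genes, and the share of all probe sets called in both was not computed. Ifit1, Irgm1, Ifi35 and Bst2 were higher in the clone in both, Psme1, Psme2 and Ifitm3 were lower in both, and 2, Gbp2 and Tapbp, were lower under DMSO and higher under RSL. Under RSL Gbp2 was higher by 0.18 (adjusted p = 0.0033, limma) and Tapbp by 0.11 (adjusted p = 0.0168), the latter a call that held in 2 of 6 repeats that left out 1 array, those without inducible RSL replicate 3 or parental RSL replicate 2 (adjusted p from 0.0138 to 0.0714). Stat2 (0.12), Oasl2 (0.17), Igtp (0.17) and Xaf1 (0.15) passed under RSL but not under DMSO, and the difference of the RSL effects passed for none of these 4. Without parental RSL replicate 3 the calls of Stat2 and Oasl2 were lost (adjusted p = 0.051 and 0.0612), that of Xaf1 without inducible RSL replicate 2 or parental RSL replicate 1 (0.057 and 0.0776), and that of Igtp without inducible RSL replicate 3 or parental RSL replicate 2 (0.0523 and 0.0821). The 6 genes called under DMSO but not under RSL were Ifngr1, Irf1, Irf3, B2m, Tap2 and Erap1, and that difference passed for none of them either. The count under RSL fell to 9 without parental RSL replicate 3, the lowest of the repeats that left out 1 array. With 1 array left out, 4707 to 5652 of all 16475 probe sets were called under RSL. The comparison of the lines under DMSO and the RSL effect in inducible cells share the inducible arrays under DMSO, so that the low Tapbp and Gbp2 values on those arrays enter both.

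**Figure D5:**
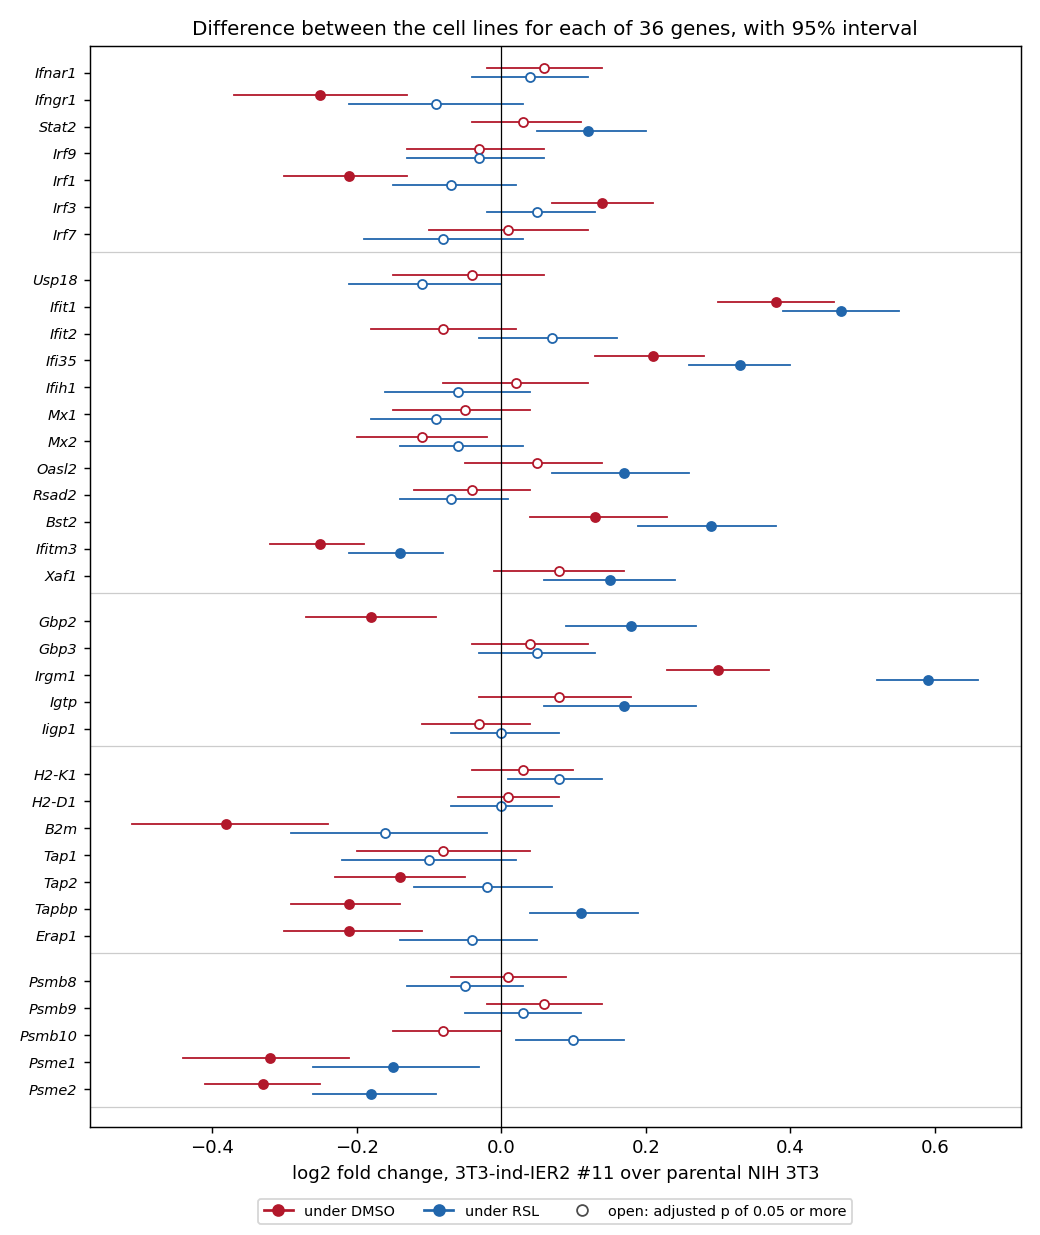
Difference between the inducible clone and parental cells for each of the 36 genes as log2 fold change (x axis) with its 95% interval, under DMSO (red) and under RSL (blue), with genes grouped by role in the order of the text; filled points passed at an adjusted p under 0.05. Under DMSO 5 genes are higher and 10 lower, and under RSL 10 are higher and 3 lower, with Gbp2 and Tapbp filled on opposite sides of 0.

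The comparisons of the lines called 29.7% and 34.2% of all probe sets, and the share called in any comparison was not computed. Across all 5 comparisons 20 of the 36 genes were called at least once and 16 in none. These 16 were Irf7, Irf9 and Ifnar1 among the regulators, Mx1, Mx2, Rsad2, Usp18, Ifit2 and Ifih1 among the antiviral effectors, Gbp3 and Iigp1 among the GTPases, and H2-K1, H2-D1, Tap1, Psmb8 and Psmb9 in antigen presentation. Of the genes with a window, 8 of 13 with an ISRE core (3 higher and 5 lower in the clone) and 6 of 18 without (2 higher and 4 lower) were called between the lines under DMSO, beside 29.7% of all probe sets. Under RSL these were 8 of 13 (6 higher and 2 lower) and 5 of 18 (4 higher and 1 lower), beside 34.2%. For RSL in inducible cells they were 2 of 13 and 2 of 18, all higher, beside 2.54%. Genes with and without the core were not compared by a test.

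Other genes of the pathway, 74 with a probe set in 5 lists, were read beside these. For RSL in inducible cells 3 of the 74 passed (4.05%, beside 2.54% of all probe sets), and in parental cells 0 (beside 0.0303%). Lgals3bp, which encodes a secreted galectin-binding glycoprotein that interferons induce, read 8.46, 8.45 and 8.44 in inducible cells under DMSO and 8.70, 8.72 and 8.77 in the arrays labelled RSL, a rise of 0.28 (adjusted p = 6.57e-05, limma). It also passed for the difference of the RSL effects (0.23, adjusted p = 0.0197), and was the only gene of the 74 to do so. Socs3, a feedback inhibitor of cytokine receptors, rose by 0.27 (adjusted p = 0.0101), and Ifngr2, the signalling chain of the interferon-gamma receptor, had a change of -0.22 (adjusted p = 0.00213). Among the 11 genes of nucleic acid sensing and the 11 of other antigen presentation none passed in inducible cells, and the type I interferon gene Ifnb1 had a value of 0.02 (95% interval -0.10 to 0.13).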

How the data were processed

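Expression was measured on 12 Affymetrix mouse arrays, 3 per group, with group and replicate number as labelled. The authors deposited log2 values in a single table, made with a custom probe set definition keyed to Entrez genes, RMA background correction and quantile normalization. The range of the values set the log base. The sources used here give neither the probe summary nor a batch. Of 16539 probe sets, 64 hybridization controls were left out and 16475 were tested without a filter, 15780 of them with 1 gene symbol and 695 unnamed. All 36 measured members matched RefSeq by Entrez ID. Members, gene lists and tests were chosen with earlier results of these data known. Values on every array are given for members called in an RSL comparison or the difference, for the largest line differences under DMSO, for the 3 smallest p-values where none was called, and for pathway anchors. Values of Erap1 were added after they were seen.

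In limma 3.58.1 (R 4.3.3), 1 model with a mean for each of the 4 groups was fitted over the 12 arrays, with moderated variances on 8 residual degrees of freedom, and 5 comparisons were drawn from it. P-values were adjusted by Benjamini-Hochberg over all 16475 probe sets, and every adjusted p of a single gene is limma's unless another test is named. Alternatives changed the variance model (an intensity trend, array weights, the replicate number as a block) or the scaling (array medians subtracted, quantile normalization repeated). Others changed the probe sets (the lowest 40% by mean left out) or the arrays (only those compared, or all but 1). A one-way analysis without shared variances, run on the arrays of the groups compared, was included. Calculations were tested on simulated data. Arrays give no count of molecules, so their number and the spread between them limit the precision. Replicates are labelled biological, but separate cultures are not stated, and a p-value here covers only the spread between arrays, which may be technical. Protein sequences were not analysed here.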

Additional observations from a re-analysis of the deposited data

Results flagged for a closer look

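For 5 genes the RSL effect differed between inducible and parental cells by the test of the difference itself (limma, adjusted p under 0.05), each with 3 arrays per group. Gbp2 differed by 0.36, with an RSL effect of 0.26 in inducible and -0.10 in parental cells (adjusted p = 0.0087). Tapbp differed by 0.33, from effects of 0.28 and -0.05 (adjusted p = 0.00372). Irgm1 differed by 0.29, from effects of 0.20 and -0.09 (adjusted p = 0.00729). Lgals3bp, from the lists of other interferon-stimulated genes, differed by 0.23, from effects of 0.28 and 0.05 (adjusted p = 0.0197). Ier2, the gene of the construct, differed by -0.64, from effects of -0.47 and 0.17 (adjusted p = 0.000262), so it was lower in the inducible arrays labelled RSL. Groups of 3 arrays were too small to look for a single array far from the others.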

How the results depend on the processing

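Depth does not apply to arrays, and 15 of the 36 genes, Gbp2 among them, lay among the lowest 40% of probe sets by mean value. The number of members called was 4 for RSL in inducible cells, 0 in parental cells, 3 for the difference, 15 between the lines under DMSO and 13 under RSL. At a nominal p under 0.05 the one-way analysis gave 9 in inducible cells, 6 in parental cells and 9 for the difference. After Benjamini-Hochberg adjustment it gave 0 in inducible cells and 8 between the lines under RSL. Leaving out 1 array at a time gave 3 to 4, 0 to 0, 3 to 3, 13 to 15 and 9 to 13 members. Over all probe sets, 418 were called in inducible cells, against 204 to 291 with 1 array left out, 736 with array weights, 1913 at a nominal p and 1 after adjustment of the one-way analysis. For the difference 109 were called, against 56 to 144, 375, 1473 and 31, and in parental cells 5, against 1 to 7 and 106 with array weights. Between the lines 4885 were called under DMSO and 5638 under RSL, against 4132 to 4660 and 4707 to 5652 with 1 array left out. Fewer arrays leave fewer degrees of freedom, and otherwise the cause was not tested. Signs were followed only for members called in that comparison by the main fit or an alternative, and none of these turned. Psmb10 in inducible cells also missed the threshold with array medians subtracted (adjusted p = 0.0591) and with the 6 arrays alone (0.108). Single genes gained a call when an array was left out, among them B2m under RSL without inducible RSL replicate 2 (-0.23, adjusted p = 0.0088), Tap1 under DMSO without inducible DMSO replicate 3 and Mx2 under DMSO without parental DMSO replicate 2.

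Same-numbered arrays did not deviate together (18 pairs, r from -0.296 to 0.219, 4 above 0.1), and 2 of 12 arrays correlated best with their own number, so the numbers were not taken as pairing. With the replicate number as a block, 3, 0, 3, 14 and 12 members were called, Psmb10 (adjusted p = 0.0763, limma alternatives 0.00722 to 0.262), Bst2 under DMSO (0.0545, 0.0169 to 0.143) and Psme1 under RSL (0.0578, 0.016 to 0.288) no longer passing.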

Other observations

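Among the 74 other genes of the pathway, 30 differed between the lines under DMSO (40.5%, 22 higher and 8 lower in the clone) and 35 under RSL (47.3%, 26 higher and 9 lower), by limma, beside 29.7% and 34.2% of all probe sets. Lgals9, which encodes galectin-9, had the largest of these differences, at 0.83 under DMSO (adjusted p = 1.35e-10) and 0.98 under RSL (adjusted p = 1.38e-11). It read 9.35, 9.39 and 9.38 and then 9.48, 9.52 and 9.54 in the clone, against 8.47, 8.63 and 8.51 and then 8.56, 8.55 and 8.49 in parental cells, without overlap. Oasl1, an inhibitor of Irf7 translation in mice, was higher in the clone by 0.51 under DMSO and 0.54 under RSL. Stat3, a transcription factor of the interleukin-6 family pathway, was higher by 0.51 and 0.43, and Sting1, the adaptor of cytosolic DNA sensing, by 0.31 and 0.36. Ube2l6, the conjugating enzyme for ISG15, was lower under DMSO (-0.39, adjusted p = 0.00145) and overlapped under RSL (-0.04, adjusted p = 0.732).

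In antigen presentation, the class I chaperones Canx and Calr were higher in the clone, by 0.16 and 0.20 under DMSO (adjusted p = 0.0221 and 0.00245) and by 0.36 and 0.25 under RSL. B2m, Tap2, Tapbp and Erap1 were lower under DMSO. Of the constitutive proteasome genes, Psmb7 was lower under DMSO (-0.23, adjusted p = 0.00266) and did not pass under RSL (-0.12, adjusted p = 0.0951). Psme3, which encodes PA28 gamma, was higher by 0.22 under DMSO and under RSL (adjusted p = 0.000619 and 0.000568), where Psme1 and Psme2 were lower.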
